A study of Mus musculus with 8 samples.

Results

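The enzymes examined here add methyl groups to lysines of histone H3, or remove them, and were grouped with a few proteins that assemble or read the same marks. The group was set by a list of 42 gene symbols, each matched to 1 Ensembl gene ID of the 49315 in the deposited counts, and all 42 passed the filter on low counts that left 18485 genes for testing. The 8 libraries hold poly(A) RNA of mouse kidney, 4 labelled control and 4 labelled as conditional Kdm1a knockout. The product of Kdm1a is LSD1, a demethylase of H3K4 and H3K9, so the comparison shows how the genes of the remaining methylation machinery were expressed where Kdm1a had been targeted. The sources used here do not give the Cre driver, the strain, the sex or the age, nor whether each library is 1 animal, so p values measure the spread between these libraries, which may be technical. Knockout kidneys still hold every cell in which the recombinase was not active.

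Methylation of H3K4 marks promoters and enhancers, methylation of H3K36 and H3K79 marks transcribed gene bodies, and methylation of H3K9 and H3K27 marks silent chromatin. Methyltransferases ("writers") of the SET domain families and the Dot1l family place the marks, and demethylases of the flavin-dependent Kdm1 and the Jumonji Kdm families remove them. HP1 proteins bind methylated H3K9, and Polycomb repressive complex 2 (PRC2), which keeps developmental genes silent, places methylation on H3K27. By their main residue the 42 genes fall into 9 for H3K4, 20 for H3K9, 5 for H3K27, 7 for H3K36 and 1 for H3K79. Several enzymes act on a second residue too, for example Kdm4 proteins on H3K36 and Kdm2b on H3K4.

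By edgeR, 3 genes of the list had an adjusted p under 0.05, or 7.14%, against 14.9% of all tested genes. They were Kmt2a, an H3K4 methyltransferase, Suv39h2, an H3K9 methyltransferase, and Kdm1b, the paralog of Kdm1a. All 3 calls were lost with a covariate for adrenal genes. They were also lost when any 1 library other than control replicate 2 or knockout replicate 3 was left out. A stretch of promoter from 150 to 51 bases before the RefSeq start is printed 5′ to 3′ on the strand of the gene (GRCm38.p6). This window holds no annotated exon in any of the 3. Capitals mark the GC box GGGCGG or its complement CCGCCC, which Sp1-family factors can bind.
Kmt2a, chr9:44881340-44881439, minus strand: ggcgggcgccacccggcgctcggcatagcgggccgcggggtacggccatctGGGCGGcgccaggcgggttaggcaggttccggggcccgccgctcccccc
Suv39h2, chr2:3475037-3475136, minus strand: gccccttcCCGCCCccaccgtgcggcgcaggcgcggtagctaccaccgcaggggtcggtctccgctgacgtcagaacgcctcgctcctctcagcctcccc
Kdm1b, chr13:47043349-47043448, plus strand: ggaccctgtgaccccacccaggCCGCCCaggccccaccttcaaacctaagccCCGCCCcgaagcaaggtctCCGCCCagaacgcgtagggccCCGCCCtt

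All 3 windows are rich in CpG, with 15 CpG dinucleotides for Kmt2a, 12 for Suv39h2 and 7 for Kdm1b. The median was 9 over the 31 listed genes that have an entry in the RefSeq promoter table and 2 over all 32851 entries. The GC box occurred 1 time for Kmt2a, 1 time for Suv39h2 and 4 times for Kdm1b, on either strand, while 18.8% of all windows of this length hold it at least once. The other motifs searched, on both strands, were CCAAT, found in 18.1% of all windows, and CCGGAAG, found in 2.51%. Neither was found in the 3 windows. The gene that rose and the 2 that fell all had a GC box and more CpG than the median of all entries. Kdm1b lay below the median of the listed genes. GC boxes were not counted over the listed genes, so the box is not shown to set these 3 apart.

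Library totals ran from 19524945 to 28544511 counts. Genes that define the kidney were present in every library, with a summed level of the 10 listed genes between 1148 and 3119 CPM (counts per 1000000, scaled by trimmed mean of M values) in controls and between 506 and 1655 CPM in knockouts, and 4 of the 10 called lower. Control replicate 2 and knockout replicate 3 lay beside each other on the first principal component of all genes, at 9.56 and 9.71, between the other 3 controls (−78.7 to −52.4) and the other 3 knockouts (48.3 to 68.4). The 12 adrenal genes summed to 2770 CPM in knockout replicate 1, 383 CPM in knockout replicate 4, 154 CPM in control replicate 4 and 17.7 to 24.7 CPM elsewhere. The 12 germ cell genes summed to 46.0 CPM in control replicate 2 and to 2.58 to 5.07 CPM elsewhere. Fibroblast genes summed to 2849 to 4092 CPM in controls and 3319 to 5660 CPM in knockouts (1 of 8 called, higher), and endothelial genes to 538 to 800 CPM and 372 to 620 CPM (1 of 8 called, lower). Leukocyte genes summed to 77.3 to 89.9 CPM in controls and 81.6 to 106 CPM in knockouts (1 of 6 tested called, higher: Ptprc, the pan-leukocyte marker CD45, at 15.8 to 26.3 CPM and 35.0 to 41.7 CPM). Of the 6 tested, 4 had a log2 fold change above 0, with Csf1r (−0.40) and Lyz2 (−0.03) below 0. The part of these cell types in the results below was not tested. Y-linked genes were near 0 in control replicate 2 and knockout replicates 1 and 4. Kdm1a itself, the targeted gene, was at 110 to 120 CPM in controls and 90.9 to 95.3 CPM in knockouts (log2 fold change −0.27, SE 0.05, edgeR adjusted p 0.0194, exact two-sided permutation p 0.0286, the smallest that 4 against 4 allows). It remained abundant in the libraries labelled knockout. In bulk tissue, fewer cells of a type and less RNA per cell cannot be told apart.

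Nearly all of the machinery was expressed in the kidney. Levels per exon length, in CPM per kilobase of exon (RPKM), covered a wide range, and the readers and corepressors of H3K9 methylation stood at the top. Trim28, the corepressor that zinc finger proteins use to bring in Setdb1, averaged 86.6 RPKM over the 8 libraries. Cbx1 (HP1 beta) averaged 66.2 RPKM, Ehmt2 (G9a, a writer of H3K9me2) 39.1 RPKM, Cbx3 (HP1 gamma) 33.4 RPKM and Cbx5 (HP1 alpha) 24.3 RPKM. At the low end stood Setd1b at 2.19 RPKM, Setdb2 at 2.06 RPKM and Kdm4d at 0.120 RPKM. Kdm4d, known for its expression in testis, had 2, 4, 11 and 3 counts in control replicates 1 to 4 and 12, 11, 15 and 9 counts in knockout replicates 1 to 4. Its groups overlapped and counting limits its value.

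**Figure D1:**
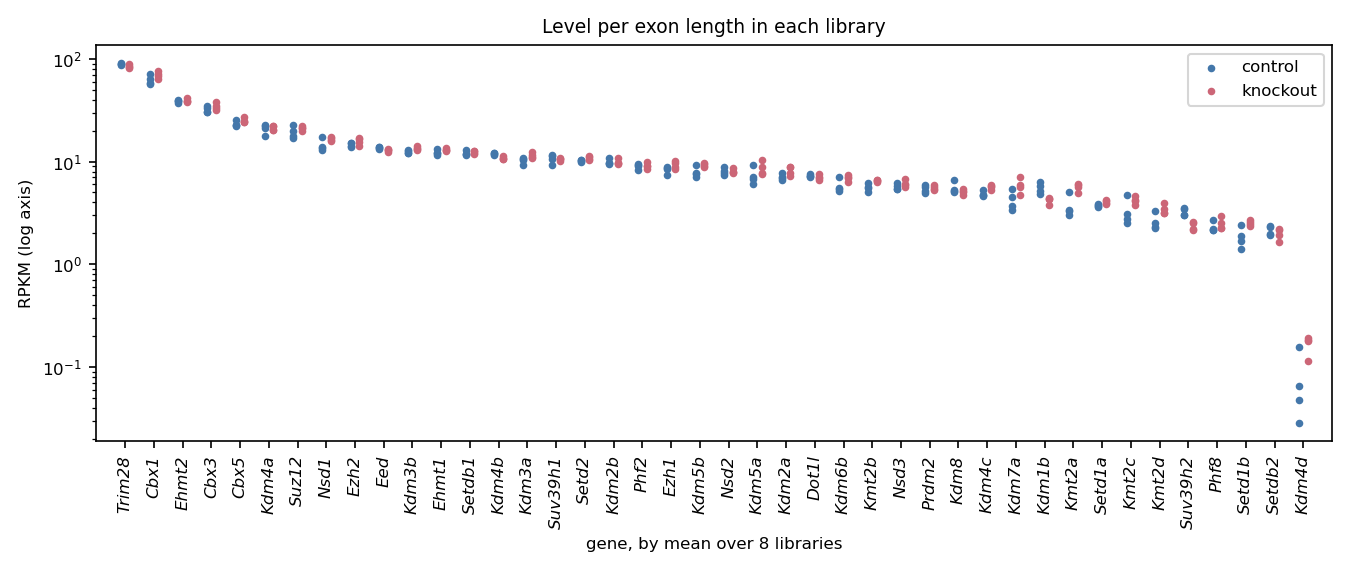
Level of each of the 42 genes per exon length (RPKM, log axis) in every library, ordered by the mean over 8 libraries, with controls in blue and knockouts in red. Trim28 (86.6 RPKM) and Cbx1 (66.2 RPKM) lead, Kdm4d (0.120 RPKM) is last, and for most genes the points of the 2 groups cover the same range.

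Of the 42 genes, 1 was higher and 2 were lower in the knockout by the quasi-likelihood test of edgeR at a Benjamini-Hochberg adjusted p under 0.05 over all tested genes, a share of 7.14%. Over all 18485 tested genes the share was 14.9%, with 6.61% higher and 8.27% lower. Without overlap between groups stood 7 of the 42 (16.7%, against 18.9% of all tested genes), 3 with all knockouts above all controls (9.29% of all tested genes) and 4 with all below (9.58%). An unadjusted p under 0.05 was reached by 14 of the 42 and by 35.1% of all tested genes. The share of calls among the 42 genes was thus below the background, and the share without overlap was near it. The median log2 fold change of the 42 was 0.10 and 32 of them (76.2%) had an estimate above 0, against a median of 0.0044 and 50.5% above 0 over all tested genes. Estimates were small: their median size, regardless of sign, was 0.12 on the log2 scale among the 42 and 0.24 among all tested genes.

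**Figure D2:**
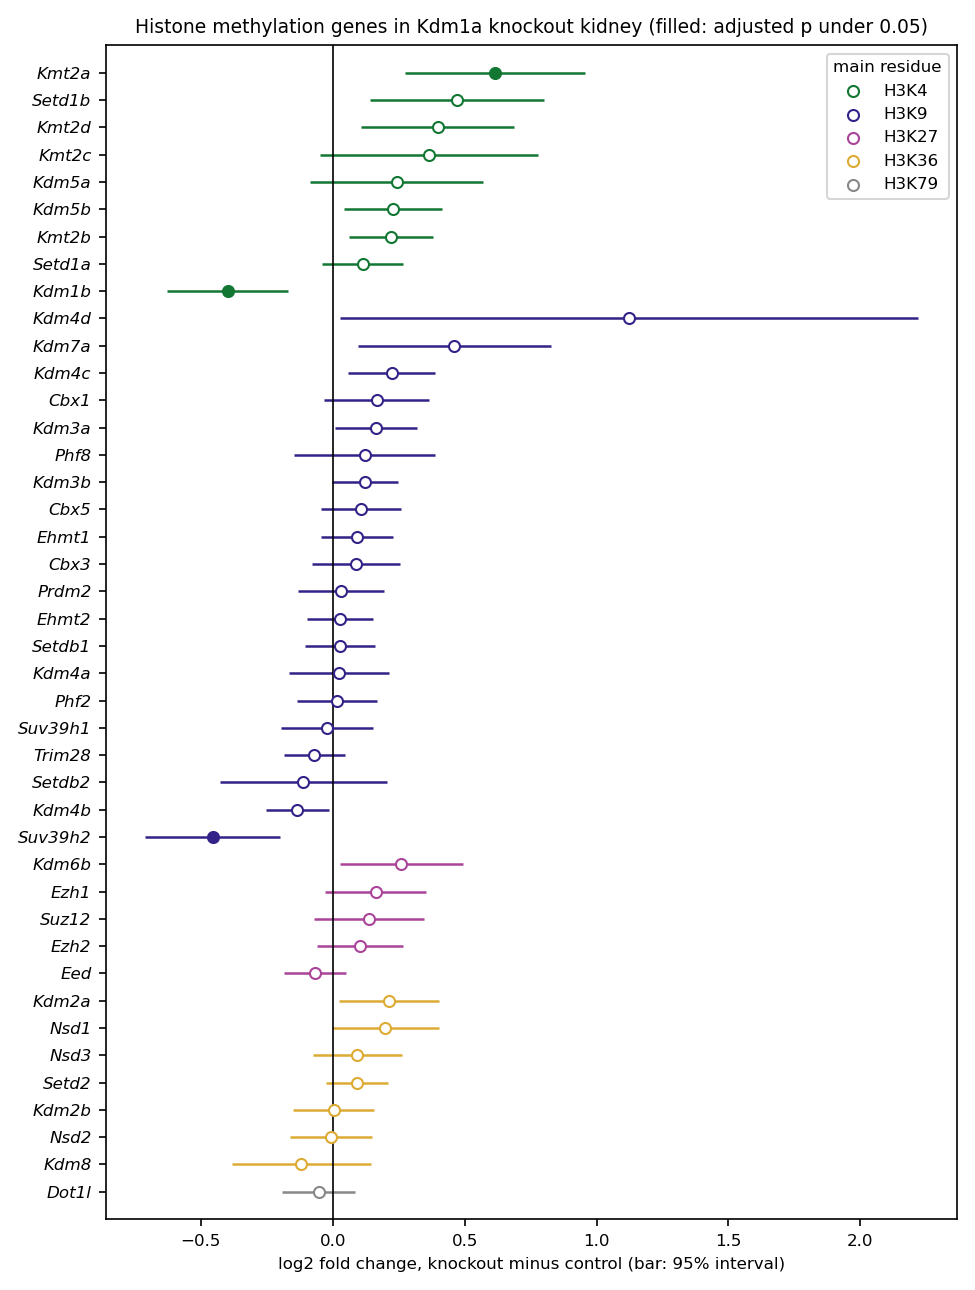
Log2 fold change, knockout minus control, for the 42 genes with 95% intervals from the edgeR fit, grouped by main residue. Filled points mark the 3 genes with an adjusted p under 0.05: Kmt2a above 0, Kdm1b and Suv39h2 below 0.

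The H3K4 writers had a higher median estimate than the H3K9 writers (0.03) and the H3K9 demethylases (0.12), a difference that was not tested. Kmt2a (MLL1, the writer that maintains Hox gene expression) rose, and the other 5, Kmt2b, Kmt2c, Kmt2d, Setd1a and Setd1b, had estimates above 0 that did not pass the test. The median over the 6 was 0.38 and the range 0.11 to 0.61. Kmt2a (ENSMUSG00000002028, chromosome 9, 44803355 to 44881296, minus strand) stood at 56.7, 83.3, 54.5 and 50.5 CPM in control replicates 1 to 4 and at 101, 97.8, 82.9 and 93.7 CPM in knockout replicates 1 to 4. Control replicate 2 was far above the other controls and just above knockout replicate 3, so the groups overlapped by that library alone. The means were 61.3 ± 14.9 CPM and 93.8 ± 7.80 CPM (SD, n = 4 each), a log2 fold change of 0.61 (SE 0.15, edgeR adjusted p 0.0319). The call held in 13 of 20 alternative fits, of which 1, on the series table, had the same counts and could not differ. Among the 13 was the fit with only the 5 libraries that carry Y-linked transcripts (0.75, adjusted p 0.0157). That fit also leaves out control replicate 2, the library that made the groups overlap. The Kmt2a call was lost with a covariate for adrenal genes (adjusted p 0.0736). Removing any 1 library other than control replicate 2 or knockout replicate 3 also ended it, with adjusted p values of 0.0805 to 0.0956. An antisense transcript, AC061963.1, shares exon positions with Kmt2a but was below 1 CPM in all libraries.

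Kmt2c and Kmt2d, which write H3K4me1 at enhancers, and Setd1b, a writer of H3K4me3 at promoters, each had control replicate 2 as the highest control. Kmt2c was at 62.0, 96.0, 56.2 and 50.6 CPM in control replicates 1 to 4 and at 93.9, 85.4, 77.3 and 84.3 CPM in knockout replicates 1 to 4 (log2 fold change 0.37, SE 0.18, edgeR adjusted p 0.184). Its highest library was a control, replicate 2. Kmt2d was at 50.7, 65.1, 44.4 and 46.2 CPM in the controls and 77.9, 68.6, 62.7 and 62.9 CPM in the knockouts (0.40, SE 0.13, adjusted p 0.0650). Setd1b was at 22.6, 28.8, 20.1 and 17.1 CPM in the controls and 32.9, 31.4, 28.6 and 30.0 CPM in the knockouts (0.47, SE 0.15, adjusted p 0.0584). In both genes control replicate 2 reached into the knockout range, while the other 3 controls lay below every knockout. Without control replicate 2 all 3 genes were called: Kmt2c at an adjusted p of 0.00211, Kmt2d at 0.00348 and Setd1b at 0.00312. Kmt2b (MLL2), the closest relative of Kmt2a, was at 48.4 to 59.4 CPM in controls and 61.0 to 64.1 CPM in knockouts, with no overlap, at an estimate of 0.22 (adjusted p 0.0628). Setd1a had the lowest estimate of the class, 0.11 (95% interval −0.04 to 0.27).

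**Figure D3:**
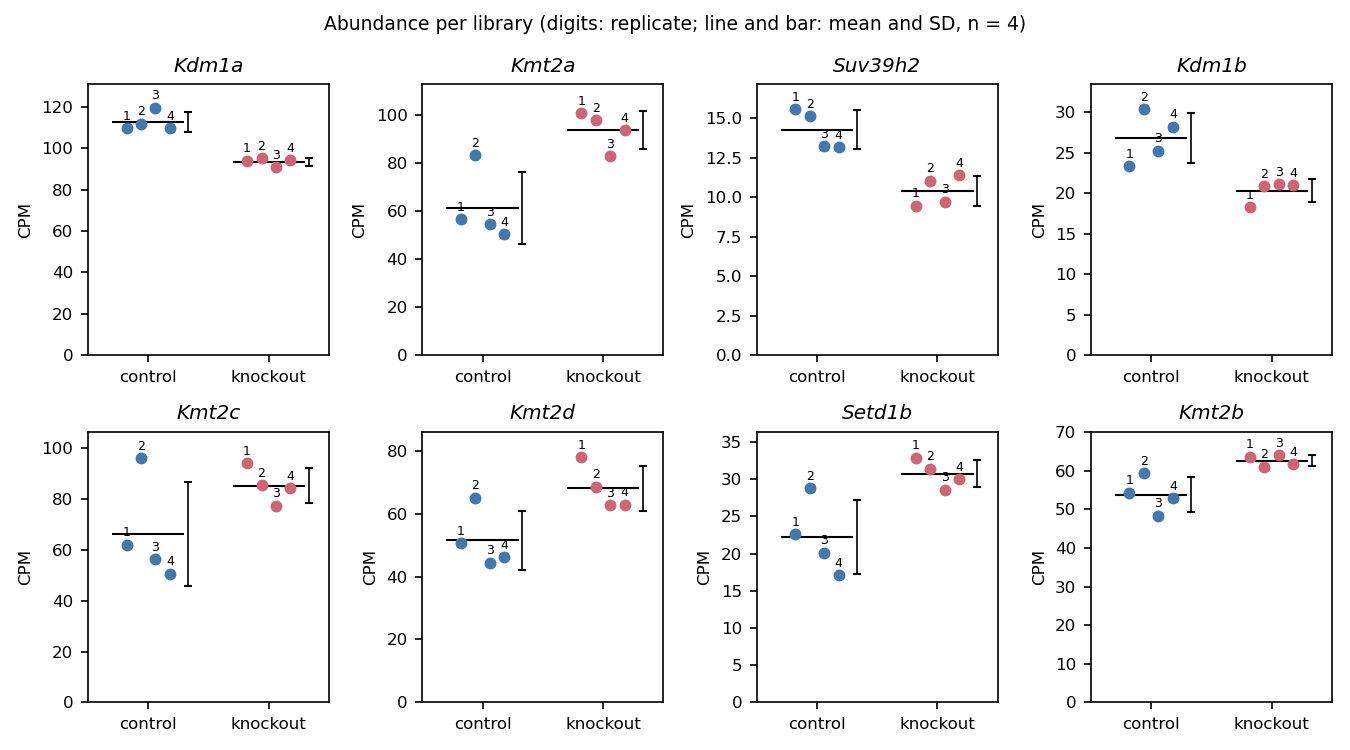
Abundance in CPM per library for Kdm1a and 7 H3K4 and H3K9 genes, with digits for the replicate, a line for the mean and a bar for the SD (n = 4). Control replicate 2 lies with the knockouts for Kmt2a (83.3 CPM), Kmt2c (96.0 CPM), Kmt2d and Setd1b, and among the controls for Kdm1a and Suv39h2.

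Fold change moved with transcript length over all genes, and 4 of the 6 H3K4 writers have more than 10 kb of exon. The median log2 fold change was −0.05 for the 5951 tested genes with 2 to 4 kb of exon, 0.11 for 1096 genes with 8 to 10 kb, 0.14 for 891 genes with 10 to 15 kb and 0.23 for 342 genes above 15 kb. Of the genes above 15 kb, 79.2% had an estimate above 0. Kmt2a has 16.7 kb of exon, Kmt2c 20.3 kb, Kmt2d 19.9 kb and Setd1b 12.1 kb. Kmt2b has 9.60 kb and Setd1a 6.80 kb, the latter below the median of the 42 (7.27 kb), and Suv39h2 has 4.41 kb and Kdm1b 4.83 kb. Among the 13 listed genes with more than 10 kb of exon, 12 had an estimate above 0, Nsd2 being the exception at −0.0065. When a trend of each library on exon length was removed by an offset, chosen after the data were seen, the median of genes above 15 kb was 0.0030 and that of the H3K4 writers fell to 0.15. With the offset the estimate of Kmt2a was 0.42 and still called (adjusted p 0.0278), that of Kmt2c was 0.14 (adjusted p 0.414), that of Kmt2d 0.16 (adjusted p 0.193) and that of Setd1b 0.33 (adjusted p 0.0850). With an offset for GC content and exon length together, also chosen after the data were seen, the median of genes above 15 kb was 0.0047 and that of the H3K4 writers 0.26, with Kmt2a at 0.48 (adjusted p 0.0309), Setd1b at 0.44 (0.0799), Kmt2d at 0.29 (0.109), Kmt2b at 0.22 (0.0760), Setd1a at 0.16 (0.156) and Kmt2c at 0.15 (0.393). The median of all 42 with the exon length offset was 0.019, with 25 estimates above 0, against a median of 0.10 and 32 estimates without the offset.

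**Figure D4:**
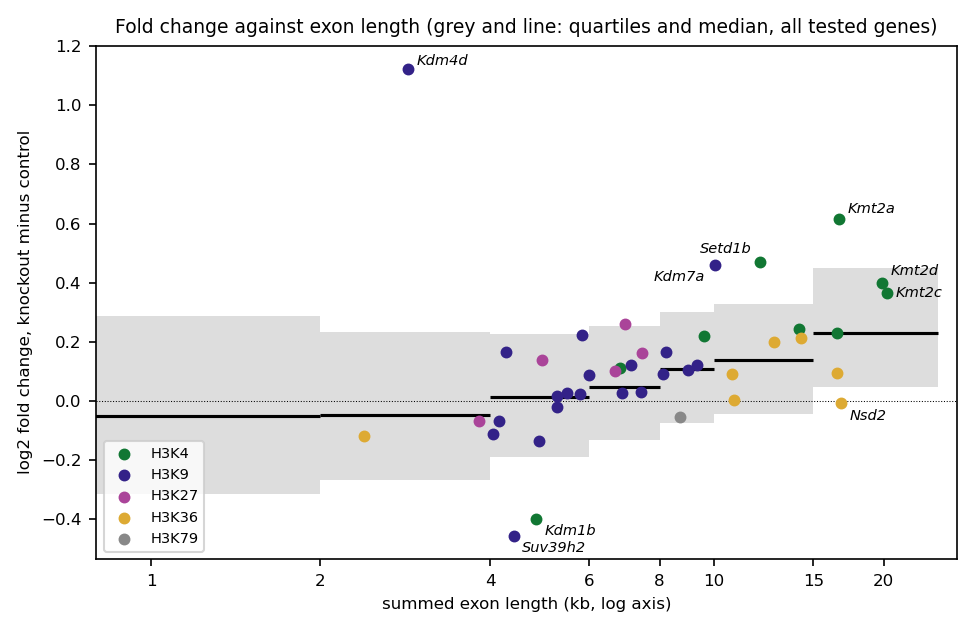
Log2 fold change, knockout minus control, against summed exon length (log axis) for the 42 genes, coloured by main residue, over the median (line) and quartiles (grey) of all tested genes in each length range, the outer ranges being drawn cut off. The median climbs from −0.05 to 0.23 with length, Kmt2a lies above the quartiles of its range, and Suv39h2 and Kdm1b lie below those of theirs.

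Among the H3K4 demethylases Kdm1b fell and the Jumonji enzymes did not pass the test. Kdm1b (LSD2, ENSMUSG00000038080, chromosome 13, 47043499 to 47084613, plus strand) is the only other flavin-dependent histone demethylase in the genome and acts on H3K4 within gene bodies. It stood at 23.4, 30.3, 25.2 and 28.2 CPM in control replicates 1 to 4 and at 18.2, 20.9, 21.1 and 21.01 CPM in knockout replicates 1 to 4. Every knockout lay below every control, and no exon of another gene overlaps it. The means were 26.8 ± 3.09 CPM and 20.3 ± 1.38 CPM (SD, n = 4 each), and the level fell by 24.1% in the knockout (log2 fold change −0.40, SE 0.10, edgeR adjusted p 0.0346). Control replicate 2, the library with germ cell transcripts, was the highest, and Kdm1b is known to be abundant in oocytes. Whether germ cells add to its Kdm1b level was not tested. Without control replicate 2 the estimate was −0.33 and still called (adjusted p 0.0251). The call was lost on removing any other single library (adjusted p 0.0530 to 0.1002), with the adrenal covariate (0.0904) and among the 5 libraries with Y-linked transcripts (−0.28, adjusted p 0.147). Per exon length Kdm1a exceeded Kdm1b 3.97 ± 0.51 times in controls and 4.31 ± 0.34 times in knockouts (SD, n = 4 each). The ratios overlapped between groups, from 3.44 to 4.43 in controls and from 4.02 to 4.80 in knockouts.

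Kdm5a and Kdm5b, which remove H3K4me3 and have 14.2 and 16.6 kb of exon, followed the long writers. Kdm5a was at 84.7 to 131 CPM in controls and 107 to 145 CPM in knockouts (log2 fold change 0.24, edgeR adjusted p 0.257). Kdm5b was at 117 to 152 CPM in controls and 146 to 159 CPM in knockouts (0.23, adjusted p 0.0889). In both, control replicate 2 was the highest control and lay inside the knockout range. Of the related genes on the sex chromosomes, Kdm5d, Uty and Kdm6a separated the libraries by the presence of Y-linked transcripts, and Kdm5c did not. Kdm5d and Uty, both on the Y chromosome, were at most 0.396 and 0.468 CPM in the 3 libraries without Y-linked transcripts, against at least 41.5 and 22.2 CPM in the other 5. Kdm6a, an X-linked H3K27 demethylase known to escape X inactivation, was at 71.9 to 77.8 CPM in the 3 libraries and 38.3 to 44.9 CPM in the 5. Kdm5c, its counterpart for H3K4, was at 65.3 to 82.9 CPM and 53.0 to 77.8 CPM, which overlap.

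Of the 7 H3K9 writers, Suv39h2 fell and the other 6 did not pass the test. Suv39h2 (ENSMUSG00000026646, chromosome 2, 3455815 to 3475031, minus strand) trimethylates H3K9 at pericentric heterochromatin together with Suv39h1. It stood at 15.6, 15.1, 13.2 and 13.2 CPM in control replicates 1 to 4 and at 9.46, 11.0, 9.72 and 11.4 CPM in knockout replicates 1 to 4. The groups did not overlap, and control replicate 2 lay with the other controls. The means were 14.3 ± 1.25 CPM and 10.4 ± 0.96 CPM (SD, n = 4 each), and the level fell by 27.1% (log2 fold change −0.46, SE 0.11, edgeR adjusted p 0.0330). The call was kept without control replicate 2 and with both offsets for transcript properties, and lost without any other single library (adjusted p 0.0593 to 0.103), with the adrenal covariate (0.0868), with the replicate number as a block (0.0539) and among the 5 libraries with Y-linked transcripts (−0.43, adjusted p 0.0980). Exons of Dclre1c and Gm13184 overlap those of Suv39h2 on the opposite strand, and Dclre1c had an estimate of 0.19 (adjusted p 0.2997). No source used here says that counts were made by strand, so reads from the overlap cannot be told apart.

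Suv39h1, the X-linked partner enzyme, stood at 61.2, 59.7, 55.4 and 49.1 CPM in control replicates 1 to 4 and at 56.3, 57.0, 53.3 and 55.5 CPM in knockout replicates 1 to 4. Its log2 fold change was −0.02 (95% interval −0.19 to 0.15, edgeR adjusted p 0.864), and the 3 libraries without Y-linked transcripts, at 55.5 to 59.7 CPM, lay within the range of the other 5. Per exon length Suv39h1 exceeded Suv39h2 3.30 ± 0.16 times in controls and 4.49 ± 0.39 times in knockouts (SD, n = 4 each), with 3.12 to 3.5 in the controls and 4.08 to 4.98 in the knockouts. The ratio did not overlap between groups, and it carries the fall of Suv39h2 in its denominator. Setdb1, the writer recruited by Trim28, had an estimate of 0.03 (95% interval −0.11 to 0.16). Ehmt1 and Ehmt2, the partners in the G9a-GLP complex, had estimates of 0.09 (−0.04 to 0.23) and 0.03 (−0.10 to 0.15). Prdm2 was at 0.03 (−0.13 to 0.20) and Setdb2, a low gene, at −0.11 (−0.43 to 0.20). For these 6 writers the 95% intervals leave room for changes of up to 0.43 on the log2 scale, and for Setdb1, Ehmt2 and Prdm2 of no more than 0.20.

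The readers and the corepressor of H3K9 methylation did not pass the test. Cbx1 was at 271, 304, 250 and 242 CPM in control replicates 1 to 4 and at 290, 330, 274 and 303 CPM in knockout replicates 1 to 4 (log2 fold change 0.17, 95% interval −0.03 to 0.37, edgeR adjusted p 0.205). Cbx3 was at 198, 210, 184 and 184 CPM in the controls and 199, 226, 190 and 211 CPM in the knockouts (0.09, −0.08 to 0.25, adjusted p 0.418). Cbx5 was at 207, 231, 200 and 205 CPM in the controls and 221, 245, 220 and 219 CPM in the knockouts (0.11, −0.05 to 0.26, adjusted p 0.282). Control replicate 2 was the highest control and knockout replicate 2 the highest knockout for all 3 HP1 genes. Of their sum per exon length, Cbx1 made up 52.7% ± 1.07 of the 3 in controls and 54.0% ± 0.46 in knockouts, Cbx3 27.4% ± 0.57 and 26.6% ± 0.28, and Cbx5 19.8% ± 0.66 and 19.4% ± 0.70 (SD, n = 4 each). The Cbx3 share was lower in all 4 knockouts (26.3% to 26.9%) than in 3 controls (27.6% to 27.9%), with control replicate 2 (26.6%) among the knockouts, and the difference in shares was not tested. Trim28, the most abundant gene of the list, was at 362 to 376 CPM in controls and 336 to 369 CPM in knockouts (−0.07, −0.19 to 0.05).

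The 9 H3K9 demethylases held 0 calls by edgeR, with 5 at an unadjusted p under 0.05, where DESeq2 called 1 (Kdm7a) and limma-voom 5 (Kdm3a, Kdm3b, Kdm4c and Kdm7a with estimates above 0, Kdm4b below). Over all tested genes edgeR called 14.9%, DESeq2 13.6% and limma-voom 44.9%. An unadjusted p under 0.05 in the edgeR fit was reached by 35.1% of them. Kdm7a, which removes methyl groups from H3K9 and H3K27, was at 34.0 to 53.8 CPM in controls and 47.4 to 70.8 CPM in knockouts (0.46, edgeR adjusted p 0.0820). Its highest library was knockout replicate 1, which also held the most adrenal transcripts. Its lowest was control replicate 4 (34.0 CPM), which held adrenal transcripts too (154 CPM). A link between the levels was not tested. Kdm4c, an eraser of H3K9me3 and H3K36me3, was at 26.9 to 30.8 CPM in controls and 30.6 to 34.1 CPM in knockouts (0.22, adjusted p 0.0666). Kdm3a and Kdm3b, erasers of H3K9me1 and H3K9me2, did not overlap between groups, with all knockouts above, at estimates of 0.16 and 0.12 (adjusted p 0.129 and 0.156). Kdm4b, the Kdm4 enzyme with the opposite sign, did not overlap either, at 57.1 to 59.3 CPM in controls and 52.0 to 55.1 CPM in knockouts (−0.13, adjusted p 0.106). Kdm4a and Phf2 had estimates of 0.02 each.

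Phf8, an X-linked eraser of H3K9me2, was at 20.4, 20.2, 25.1 and 20.1 CPM in control replicates 1 to 4 and at 27.7, 21.1, 21.2 and 23.3 CPM in knockout replicates 1 to 4 (log2 fold change 0.12, 95% interval −0.15 to 0.39, edgeR adjusted p 0.488). The highest value was in knockout replicate 1 and the second highest in a control, replicate 3. The 3 libraries without Y-linked transcripts averaged 23.7 ± 3.76 CPM and the other 5 averaged 21.6 ± 2.02 CPM. Kdm4d, with its few counts, had an estimate of 1.12 with a 95% interval of 0.03 to 2.22 (edgeR adjusted p 0.135).

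PRC2 core genes and the H3K27 demethylase Kdm6b held 0 calls by edgeR, with 1 of 5, Kdm6b, at an unadjusted p under 0.05. DESeq2 also called 0 of these 5 and limma-voom called 1, Kdm6b, against 13.6% and 44.9% of all tested genes. The edgeR shares over all tested genes were 14.9% called and 35.1% at an unadjusted p under 0.05. Ezh2, the catalytic subunit of dividing and developing cells, was at 102, 102, 93.3 and 94.2 CPM in control replicates 1 to 4 and at 111, 112, 94.3 and 103 CPM in knockout replicates 1 to 4 (0.10, 95% interval −0.06 to 0.27, adjusted p 0.335). Ezh1, its counterpart in resting cells, was at 63.5, 66.6, 63.9 and 54.4 CPM in the controls and 75.6, 66.0, 63.6 and 72.8 CPM in the knockouts (0.16, −0.03 to 0.35, adjusted p 0.201). In both genes knockout replicate 3 lay among the controls, as did knockout replicate 2 for Ezh1. Per exon length Ezh2 exceeded Ezh1 in all 8 libraries, 1.76 ± 0.13 times in controls and 1.69 ± 0.14 times in knockouts (SD, n = 4 each). Cell cycle genes, which often accompany Ezh2, summed to 2448 to 2678 CPM in controls and 2356 to 2649 CPM in knockouts, with 0 of 20 called by edgeR and 5 at an unadjusted p under 0.05. Eed, the subunit that binds H3K27me3, was at 50.7 to 52.8 CPM in controls and 47.8 to 50.5 CPM in knockouts, without overlap but at an estimate of only −0.07 (−0.19 to 0.05). Suz12 had an estimate of 0.14 (−0.07 to 0.35) and Kdm6b of 0.26 (0.03 to 0.49, adjusted p 0.110).

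The 7 genes of H3K36 methylation also held 0 calls by edgeR, with 1, Kdm2a, at an unadjusted p under 0.05. DESeq2 called 0 of the 7 and limma-voom called 2, Kdm2a and Nsd1, against 13.6% and 44.9% of all tested genes. For edgeR the shares over all tested genes were 14.9% called and 35.1% at an unadjusted p under 0.05. Controls and knockouts overlapped for every one of the 7. Setd2, the only H3K36 trimethylase of most tissues, was at 107 to 112 CPM in controls and 112 to 122 CPM in knockouts (0.09, 95% interval −0.03 to 0.21). The dimethylases Nsd1, Nsd2 and Nsd3 had estimates of 0.20 (−0.0047 to 0.40), −0.0065 (−0.16 to 0.15) and 0.09 (−0.08 to 0.26). Nsd2 was called lower in 1 alternative, the offset for GC content and exon length. The erasers Kdm2a and Kdm2b had estimates of 0.21 (0.02 to 0.40) and 0.0033 (−0.15 to 0.16). Kdm8, a Jumonji protein that has been described as an H3K36me2 demethylase, was at −0.12 (−0.38 to 0.15). Dot1l, the only H3K79 methyltransferase, was at 62.2 to 66.2 CPM in controls and 57.5 to 65.9 CPM in knockouts (−0.05, −0.19 to 0.09).

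**Figure D5:**
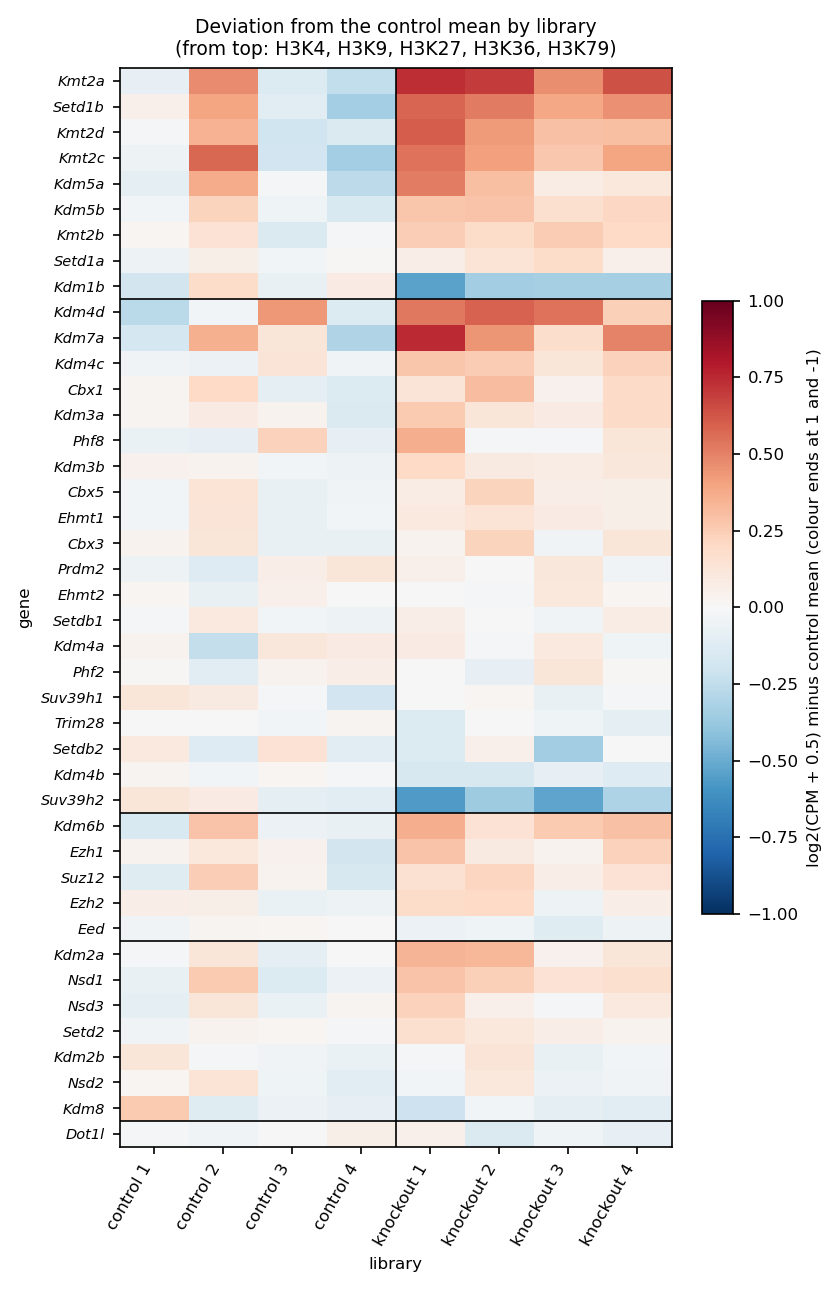
Deviation of each gene from its control mean in every library, as log2(CPM + 0.5), with genes in rows by residue and libraries in columns. Red for Kmt2a, Setd1b, Kmt2d and Kmt2c covers the 4 knockouts and control replicate 2, and blue for Suv39h2 and Kdm1b covers the knockouts and leaves control replicate 2 out.

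The intermediate libraries shaped the list as they shaped all genes. Control replicate 2 was the control nearest to the knockout mean for 25 of the 42 genes (59.5%) and for 53.0% of all tested genes. Knockout replicate 3 was the knockout nearest to the control mean for 22 of the 42 (52.4%) and for 42.9% of all tested genes. Without control replicate 2, 13 of the list were called higher and 2 lower. Those 13 were Kmt2a, Kmt2b, Kmt2c, Kmt2d, Setd1b, Kdm5a, Kdm5b, Kdm2a, Kdm6b, Kdm7a, Nsd1, Cbx1 and Suz12. In that fit 7084 of all genes were called, or 37.4%, so the background rose along with the list. Leaving out any single library other than control replicate 2 or knockout replicate 3 gave 0 calls in the list, with 7 to 11 genes at an unadjusted p under 0.05. In those 6 fits 153 to 695 of all genes were called, or 0.819% to 3.65%, so that 0 of 42 lies near the background. Without knockout replicate 3 the calls in the list were 4 of 41 tested, all higher (Kdm2a, Kdm4c, Kdm7a and Kmt2a). In that fit 3192 of all genes were called, or 17%, a larger share than in the list. Which part these intermediate libraries owe to tissue composition was not tested.

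Genes that work with these enzymes were read from 4 lists with 69 genes, of which 67 were tested. Of these, 3 were called higher and 1 lower (5.97%, against 14.9% of all tested genes), and 36 had an estimate above 0 (53.7%, against 50.5%). The lists thus held fewer calls than the background. Each of the 4 calls below was kept, among the fits that left out 1 library, only without control replicate 2 or knockout replicate 3, and adjusted p values in the other 6 reached 0.102. Among 28 tested further writers and erasers the only call was Setd7, an H3K4 monomethyltransferase that also modifies other proteins, at 40.0 ± 7.25 CPM in controls and 58.4 ± 6.13 CPM in knockouts (log2 fold change 0.54, SE 0.13, edgeR adjusted p 0.0283, and 0.0576 with the adrenal covariate). Among 12 tested subunits of the COMPASS complexes, which hold the Kmt2 and Setd1 enzymes, the only call was Dpy30, a core subunit, at 48.2 ± 1.56 CPM and 40.7 ± 1.90 CPM (−0.24, SE 0.06, adjusted p 0.0319). That call was kept in 8 of 20 alternatives, among them the series table, which held the same counts and could not differ. It was lost with the adrenal covariate (adjusted p 0.0638), with the exon length offset (−0.19, adjusted p 0.0682), with the offset for GC content and length (0.0659), with the replicate block (0.0526), with no filter (0.0550) and among the 5 libraries with Y-linked transcripts (0.0828). None of the 8 further PRC2 subunits was called by edgeR, and 3 had an unadjusted p under 0.05. Among 19 partners of H3K9 methylation 2 were called higher, and neither call was kept under every offset for transcript properties. Atf7ip, which stabilises Setdb1, was at 101 ± 3.62 CPM and 121 ± 5.22 CPM (0.27, SE 0.06, adjusted p 0.0225). It has 20.7 kb of exon, and its estimate was 0.0055 with the exon length offset (adjusted p 0.969) and 0.0051 with the offset for GC content and length (adjusted p 0.971). Fam208a (TASOR), a subunit of the HUSH complex that works with Setdb1 and Morc2a, was at 45.8 ± 9.12 CPM and 64.4 ± 2.93 CPM (0.49, SE 0.12, adjusted p 0.0335). Its estimate was 0.43 with the exon length offset (adjusted p 0.0344) and 0.13 with the offset for GC content and length (adjusted p 0.187), and the adrenal covariate also ended the call (adjusted p 0.0710). In all 4 genes the groups did not overlap (SD, n = 4 each).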

How the data were processed

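The authors deposited whole-number counts per gene for each library, together with exon coordinates and exon lengths, per the file headers, and the same counts in a table of the whole series, where 0 cells differed. The submitters' processing notes name Trimmomatic 0.36, STAR 2.5.2b, featureCounts of Subread 1.5.2 and GRCm38. Strand and multiple matches are not given in the sources used here. Per the labels' protocols, libraries were made from poly(A) RNA of frozen kidney. Symbols come from GENCODE M21 (48970 of 49315 IDs), promoters from RefSeq. Counts were scaled by TMM, filtered with filterByExpr and compared by genotype in edgeR 4.0.16 (R 4.3.3, quasi-likelihood test), and p values were adjusted by Benjamini-Hochberg over all tested genes. Intervals are 95% from the same test. RPKM is CPM divided by exon length in kb. One count stands for 0.0350 to 0.0512 CPM, which limits low genes. No pair of libraries agreed within counting noise (chi-square per degree of freedom at least 11.0). On simulated data the procedure recovered 83% of genes with a log2 change of 1 and 98% of those with 2. Of its 193 calls 12 were false. The simulation placed no changes in low genes and held no intermediate libraries, so these rates need not hold for the deposited data. Smaller changes, such as most of those reported here, were not simulated.

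Alternatives were DESeq2 size factors, DESeq2 1.42.0, limma-voom 3.58.1 with sample weights, no filter, a mean of at least 1 CPM, a replicate block, covariates for Y-linked and adrenal genes, the libraries with Y-linked transcripts alone, the series table and each library left out. The series table held the same counts, so its fit could not differ from the main fit. Offsets for exon length, and for GC content and exon length (lowess per library, span 0.3), were chosen after seeing the data. The 42 genes and the lists were chosen with earlier results of these data known. Values per library are given for the called genes and for Kdm1b, Ezh1, Ezh2, Suv39h1, Phf8, Cbx1, Cbx3 and Cbx5 by rule, and for Kmt2c, Kmt2d, Setd1b and Kdm4d by choice after their values were seen. Up to 3 called genes per pathway list are named. Ptprc was named after its values were seen. Of the 42 genes, 15 share exon positions with a gene on the opposite strand and 3 with one on the same strand.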

Additional observations from a re-analysis of the deposited data

Results flagged for a closer look

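In 7 of the 86 groups of 4 libraries examined (42 genes and Kdm1a, in 2 genotypes), 1 library stood far from the other 3 by Dixon's test, where chance gives about 1 in 20. Kdm1b was lowest in knockout replicate 1, at 18.2 CPM against 20.9 to 21.1 CPM in the other knockouts. Kdm4c was highest in control replicate 3 (30.8 CPM against 26.9 to 27.5 CPM), as was Phf8 in the same library (25.1 CPM against 20.1 to 20.4 CPM). Setdb1 was highest in control replicate 2 (88.8 CPM against 80.0 to 81.5 CPM) and Kdm8 in control replicate 1 (15.8 CPM against 12.01 to 12.6 CPM). In knockout replicate 2 both Cbx5 (245 CPM against 219 to 221 CPM) and Nsd2 (146 CPM against 130 to 132 CPM) stood above the other knockouts.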

How the results depend on the processing

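Leaving out 1 library gave 0 to 13 genes of the list called higher and 0 to 2 called lower. Of all genes 153 to 7084 were called, or 0.819% to 37.4%. The Kdm1a estimate ran from −0.29 to −0.24 in those fits and was not called in 5 of 8. DESeq2 called 4 higher and 2 lower (4423 of all genes, 13.6%) and limma-voom 15 higher and 3 lower (8302, 44.9%). The limma-voom fit gave control replicate 2 the lowest weight, 0.283, against 0.641 to 2.30 in the other libraries. The adrenal covariate gave 0 higher and 0 lower (1195 of all genes). The libraries with Y-linked transcripts alone gave 6 higher and 0 lower (3163 of all genes), with Kdm1a at −0.28 (adjusted p 0.0562). That fit leaves out control replicate 2 and knockout replicates 1 and 4. With the replicate block 3 were called higher and 1 lower (3229 of all genes). The numbers are not stated to pair animals, and same-numbered libraries did not deviate together in every pair (correlations of −0.11, 0.33, 0.23 and −0.06; 3 of 8 libraries correlated best with their own number).

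Estimates changed sign for 16 genes, and no estimate of the changed sign was a call. With limma-voom these were Nsd2 (0.021), Prdm2 (−0.018), Ehmt2 (−0.0080), Kdm4a (−0.060) and Phf2 (−0.016). Among libraries with Y-linked transcripts they were Suv39h1 (0.0013), Kdm4a (−0.036), Phf8 (−0.044), Phf2 (−0.0063) and Nsd2 (0.074). The exon length offset gave Setd2 −0.036, Kdm2b −0.13, Prdm2 −0.034, Nsd3 −0.12, Setdb1 −0.025, Phf2 −0.0019 and Kdm4a −0.0072. The offset for GC content and length gave Setd2 −0.082, Nsd3 −0.10, Suz12 −0.096, Cbx3 −0.062, Trim28 0.0020, Cbx5 −0.0038, Prdm2 −0.00028, Setdb1 −0.016, Ezh2 −0.022 and Kdm2b −0.027. Others were Kdm2b with DESeq2 (−0.0038) or no filter (−0.016), Phf2 with no filter (−0.0024), Nsd2 with the filter at 1 CPM (0.0028) or the adrenal covariate (0.030), and Suv39h1 with that covariate (0.0012). With 1 library left out, estimates ran from −0.042 to 0.058 for Kdm2b, −0.051 to 0.066 for Kdm4a, −0.048 to 0.039 for Nsd2, −0.021 to 0.046 for Phf2, −0.011 to 0.071 for Prdm2 and −0.087 to 0.035 for Suv39h1. The causes were not tested. Fewer libraries give the test less power by construction. With 1 library left out, calls over all genes nevertheless ran from 153 to 7084, against 2751 in the main fit. Depth limits Kdm4d and Setdb2.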
